A study of Homo sapiens with 4 samples.

Results

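The promoters described here carried both H3K27me3 and H3K4me3 in untreated human ES cells and kept only H3K4me3 above the limit after the catalytic domain of the H3K27 demethylase JMJD3 had been induced. A promoter was taken when its deposited signal was above 20 for both marks in −Dox and, in +Dox, at or below 20 for H3K27me3 and above 20 for H3K4me3. This gave 745 of the 20242 promoters in the files (3.68%), and 745 of the 1907 promoters that were bivalent in −Dox (39.1%). Of the remaining bivalent promoters, 973 were above 20 for both marks in both conditions and are called stable bivalent below, and 189 fell in neither set. The reverse change, from H3K4me3-only in −Dox to bivalent in +Dox, was met by 36 of 10980 promoters (0.328%). The promoters were chosen by all 4 deposited values, so the loss of H3K27me3 is a condition of the set, its values are a description, and no test was made.

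The cells were JMJD3c-hESCs, a derivative of the SEES-3 human ES cell line that holds a doxycycline (Dox)-regulated piggyBac construct for JMJD3c, the catalytic part of JMJD3. All 4 libraries came from this line on day 3. The H3K27me3 −Dox and H3K4me3 −Dox libraries were from untreated cells, and the H3K27me3 +Dox and H3K4me3 +Dox libraries from cells given Dox at 1 µg/ml. There was 1 library per mark and condition, so no replicate spread is known, and an effect of Dox itself cannot be told apart from one of JMJD3c in these 4 libraries. Whether the line is 1 clone is not given in the sources used here, and the libraries hold no measure of RNA that could check the cell type.

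H3K27me3 is placed by Polycomb repressive complex 2 on the promoters of silent genes, many of them developmental regulators, and is removed by the demethylases JMJD3 and UTX. H3K4me3 is placed by the Trithorax-related methyltransferases around the start sites of active or poised genes. In ES cells many CpG-rich promoters of developmental genes carry both marks, a state known as bivalent, and on differentiation such promoters commonly keep one of the marks and lose the other.

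The promoters printed here show the range of sequence in the set. H1F0 (the linker histone H1.0), GRIN2D (a subunit of the NMDA glutamate receptor) and NRCAM (a neuronal adhesion molecule) fell in H3K27me3 value by 66.8, 59.3 and 48.9. They were taken from the named promoters whose deposited start is that of the canonical transcript and whose 200 bases before it overlap no annotated exon. Among these promoters only that of FZD2, not printed, fell more (68.0) than H1F0. MYF6, a myogenic transcription factor of the basic helix-loop-helix family, had the fewest CG dinucleotides among them. Each line gives these 200 bases, 5′ to 3′ on the gene's strand, from GRCh37 (the assembly behind hg19), with every CG in capitals. The stretches are chr22:38201036-38201235, plus strand for H1F0, chr7:108096881-108097080, minus strand for NRCAM, chr19:48896725-48896924, plus strand for GRIN2D and chr12:81101213-81101412, plus strand for MYF6.
H1F0: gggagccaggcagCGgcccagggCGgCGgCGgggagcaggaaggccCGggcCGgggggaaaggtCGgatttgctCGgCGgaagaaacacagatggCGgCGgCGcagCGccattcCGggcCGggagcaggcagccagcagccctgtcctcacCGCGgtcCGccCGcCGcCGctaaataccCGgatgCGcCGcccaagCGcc
NRCAM: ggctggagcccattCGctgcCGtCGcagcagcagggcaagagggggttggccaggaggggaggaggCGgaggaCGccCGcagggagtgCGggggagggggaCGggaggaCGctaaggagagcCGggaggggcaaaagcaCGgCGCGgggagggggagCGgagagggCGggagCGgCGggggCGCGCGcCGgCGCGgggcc
GRIN2D: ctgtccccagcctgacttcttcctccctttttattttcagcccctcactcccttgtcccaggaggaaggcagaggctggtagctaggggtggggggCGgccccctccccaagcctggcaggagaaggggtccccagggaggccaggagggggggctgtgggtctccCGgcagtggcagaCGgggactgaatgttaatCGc
MYF6: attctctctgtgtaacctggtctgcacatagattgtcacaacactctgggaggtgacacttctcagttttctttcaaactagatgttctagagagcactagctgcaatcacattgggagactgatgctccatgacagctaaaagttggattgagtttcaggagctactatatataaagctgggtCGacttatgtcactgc
They hold 25, 23, 4 and 1 CG, in the order printed. The set thus spans CpG-dense starts and, at GRIN2D and MYF6, CpG-poor ones, and the CpG-dense form was by far the more common, as given further on.

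In −Dox the H3K27me3 value of the 745 promoters ran from 20.2 to 83.3 with a median of 27.8, and in +Dox from 1.12 to 19.8 with a median of 11.9. The stable bivalent promoters had medians of 68.1 and 43.2, and all promoters of 6.09 and 5.97. The lost mark was thus mostly weak before induction. H3K27me3 was below 30 in −Dox at 423 of the 745 promoters (56.8%), against 77 of the 973 stable bivalent promoters (7.91%), and was 60 or more at 25 of them (3.36%), against 573 (58.9%).

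At most of these promoters less than 0.5 of the −Dox value was left. The +Dox/−Dox ratio of H3K27me3 had a median of 0.383 (interquartile range 0.275 to 0.502), and was below 0.5 at 556 of 745 promoters (74.6%). Below 0.5 were also 40.8% of all bivalent promoters, 18.5% of stable bivalent ones and 21.5% of all promoters with a ratio. The rule uses the values that make up this ratio. In the set the ratio was below 0.25 at 140 promoters, between 0.5 and 0.66 at 132, and 0.66 or more at 57. For H3K27me3 a value of 20 corresponds to an estimated 15.5 reads before and 15.8 after induction, and for H3K4me3 to 20.6 and 15.8. The median promoter of the set had 21 and 9 reads for H3K27me3 in −Dox and +Dox, and 52 and 38 for H3K4me3. At this depth the 95% counting interval of the H3K27me3 ratio lay below 1 at 485 promoters (65.1%). The share was 6.65% over all promoters with reads, 47.5% over all bivalent promoters and 38.0% over stable bivalent ones. As the rule requires a fall at every promoter of the set, these shares are a description. The interval included 1 at 260 promoters of the set (34.9%). For these 260 the fall was within counting error. Both +Dox files, H3K27me3 and H3K4me3, were built on the same signal step of 0.373, and whether 1 library's read number was used for both was not tested; another number would rescale all +Dox values of a mark by the same factor.

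In +Dox, 272 of the promoters (36.5%) had an H3K27me3 value of 10 or less, and 76 (10.2%) were at or under the median of all promoters, 5.97. For the remaining 669 some H3K27me3 above that median was measured, so "H3K4me3-only" names a side of the limit and not the absence of the mark. The set held 9.36% of the H3K27me3 signal over all promoters in −Dox and 4.11% in +Dox. Its share of the H3K4me3 signal was 4.63% and 4.66%.

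**Figure D1:**
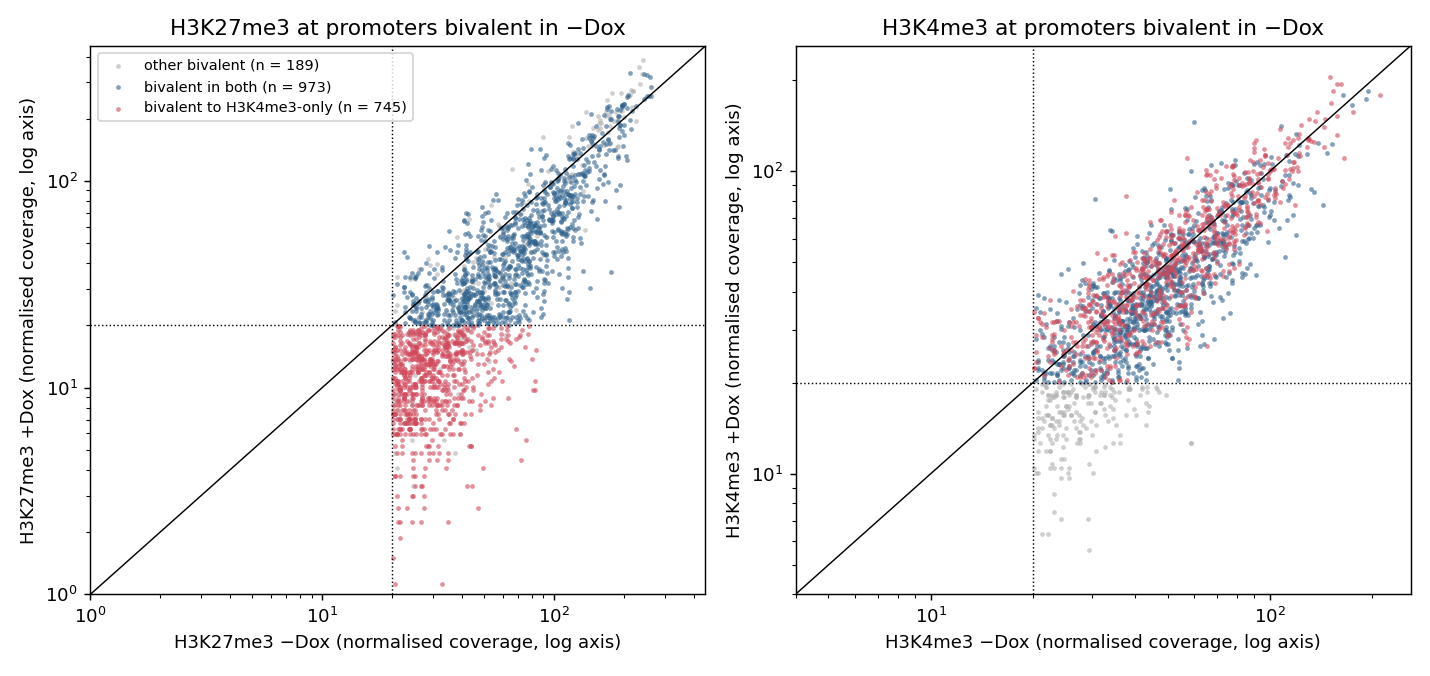
H3K27me3 (left) and H3K4me3 (right) values of the 1907 promoters that were bivalent in −Dox, −Dox on the x axis and +Dox on the y axis, in normalised coverage on log axes, 1 point per promoter and 1 library per axis. The diagonal marks equal values and the dotted lines the limit of 20; the 745 promoters that became H3K4me3-only (red) fill the lower right of the left panel, which is how they were chosen, and lie on both sides of the diagonal in the right panel.

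How close the limit lies can be read from the promoters beside it. Just inside the −Dox limit were RRAGD, PARP12 and MID2, each at 20.2 for H3K27me3, and just outside were SLC6A7, PFKP and CA12, each at 19.8. At the +Dox limit CACNG4, CDKN1A and SOX9 were inside at 19.8, and GIPR, KCNG1 and PLXNA2 outside at 20.1. For H3K4me3 in +Dox, PODXL2 and STAT5A were inside at 20.1 and EYA2 at 20.5, while PTGER3, GRIN3B and NRK were outside at 19.8. These differences are 1 to 2 steps of the signal, less than the value of 1 read. Of the 745 promoters, 39 were both below 25 in −Dox and above 15 in +Dox.

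Among promoters with an H3K27me3 value of at least 40 in −Dox, the lowest ratios came with +Dox values below the median of all promoters, 5.97, at IGFBP7, ZFHX4 and PDE8A. IGFBP7, which codes for a secreted protein that binds insulin-like growth factors, had H3K27me3 values of 72.3 in −Dox and 4.47 in +Dox (ratio 0.0619, counting interval 0.0184 to 0.189). ZFHX4, which codes for a large zinc finger and homeodomain transcription factor, had 75.7 and 5.59 (ratio 0.0739, 0.0175 to 0.179). PDE8A, which codes for a cAMP phosphodiesterase, had 46.8 and 2.61 (ratio 0.0558, 0.00635 to 0.212). In each of these the interval stayed far below 1, and H3K4me3 was 29.4 and 42.5 at IGFBP7, 77.2 and 104.0 at ZFHX4 and 89.8 and 123.8 at PDE8A. The counting interval of the H3K4me3 ratio included 1 at IGFBP7 (0.881 to 2.51) and ZFHX4 (0.973 to 1.85), and was 1.03 to 1.85 at PDE8A.

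The other promoters with the lowest ratios from a −Dox value of at least 40 were those of BMP3, a ligand of the BMP family (44.1 and 3.36), IER5L, an immediate-early response gene family member (42.2 and 3.36), PPP1R3D, a glycogen-targeting subunit of protein phosphatase 1 (49.4 and 4.10), GABRB2, a subunit of the GABA-A receptor (68.5 and 6.34), PSMA1, a subunit of the proteasome core (82.9 and 9.69), GPR27, an orphan G protein-coupled receptor (43.7 and 5.22), and PPP1R9B, the scaffold protein spinophilin (43.7 and 5.22). Their ratios ran up to 0.119. The largest falls in value added SFRP1, a secreted WNT antagonist (81.0 and 9.69), PDE3B, a cyclic nucleotide phosphodiesterase (82.5 and 10.8), FZD2, a frizzled receptor for WNT ligands (83.3 and 15.3), H1F0 (80.6 and 13.8), GRIN2D (74.9 and 15.7) and RYR3, an intracellular calcium release channel (77.2 and 18.3). H1F0, whose sequence is printed above, had the fifth highest −Dox value of the set, and so began near the top of its range.

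**Figure D2:**
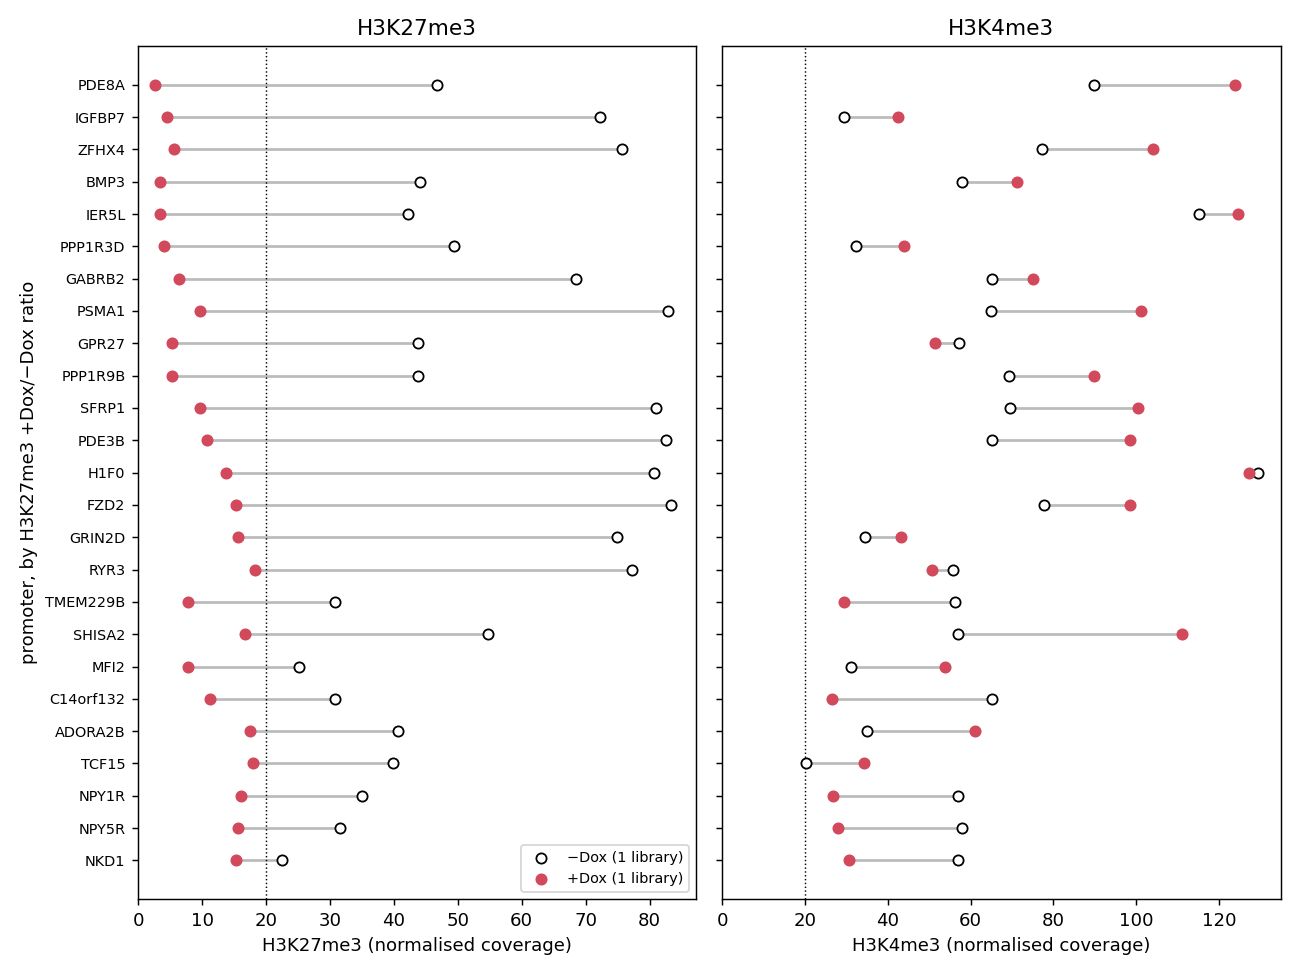
H3K27me3 (left) and H3K4me3 (right) in normalised coverage at named promoters with the lowest H3K27me3 ratios, the largest H3K27me3 falls and high or low H3K4me3 ratios, ordered by H3K27me3 ratio. Open points are −Dox, filled points +Dox, 1 library each with no replicate; the dotted line is the limit of 20, and H3K4me3 moved right at SHISA2 and PDE3B and left at NPY1R, NPY5R and C14orf132.

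H3K4me3 of the set as a whole was close to its −Dox level. Its median was 50.7 in −Dox and 48.1 in +Dox, and the median log2 ratio was −0.03. It was higher in +Dox at 345 of the 745 promoters (46.3%), where 44.6% of all promoters above 20 in both conditions were higher. The counting interval lay above 1 at 16 promoters (2.15%), where 1.8% of those promoters were so, and below 1 at 26 (3.49%), where 3.65% were so. The median log2 ratio turned to 0.01 when both H3K4me3 libraries were scaled to the same total, so no direction of H3K4me3 is given for the set.

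At the stable bivalent promoters, by contrast, H3K4me3 had medians of 46.7 and 39.5, a median log2 ratio of −0.21, and was higher in +Dox at 273 of 973 (28.1%). The difference was present among promoters with like H3K27me3 in −Dox. Between 20 and 30, H3K4me3 was higher in +Dox at 182 of 423 promoters of the set (43.0%) and at 15 of 77 stable bivalent ones (19.5%), with median log2 ratios of −0.05 and −0.20. Between 30 and 40 the shares were 100 of 204 promoters and 21 of 91 (log2 ratios −0.02 and −0.27), between 40 and 60 they were 50.5% and 29.3% (0.01 and −0.19), and between 60 and 100 they were 64.0% of 25 and 29.1% of 326 (0.23 and −0.20). Both sets had to be above 20 for H3K4me3 in both conditions, and the comparison is between a pair of libraries with no replicate.

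Within the set, H3K4me3 was also highest relative to −Dox where H3K27me3 had fallen most. Among the 140 promoters with an H3K27me3 ratio below 0.25 the median log2 ratio of H3K4me3 was 0.04 and 59.3% were higher in +Dox. The medians were −0.05 for the 416 promoters with ratios of 0.25 to 0.5, −0.06 for the 132 of 0.5 to 0.66 and −0.07 for the 57 of 0.66 or more, and the shares higher in +Dox were 43.8%, 46.2% and 33.3%. The counting interval of H3K4me3 lay above 1 at 6 and below 1 at 0 of the 140 promoters, at 8 and 18 of the 416, at 2 and 4 of the 132 and at 0 and 4 of the 57, where 1.8% and 3.65% of all promoters above 20 in both conditions were so. As these groups were cut on a measured ratio, the trend is a description.

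High H3K4me3 ratios were found at SHISA2, a modulator of WNT and FGF signalling (57.0 in −Dox and 111.1 in +Dox, ratio 1.95, counting interval 1.39 to 2.76), ADORA2B, an adenosine receptor (35.1 and 61.1, ratio 1.74, 1.11 to 2.77), MFI2, which codes for melanotransferrin (31.1 and 53.7, ratio 1.73, 1.06 to 2.81), and TCF15, a mesodermal factor of the basic helix-loop-helix family (20.2 and 34.3, ratio 1.70, 0.916 to 3.13). The interval at TCF15 included 1. At these 4 promoters H3K27me3 in −Dox was 54.8 at SHISA2, 40.7 at ADORA2B, 25.1 at MFI2 and 39.9 at TCF15.

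The lowest H3K4me3 ratios were those of C14orf132 (65.3 and 26.5, ratio 0.406, 0.239 to 0.678), NPY1R and NPY5R, a pair of neuropeptide Y receptors (57.0 and 26.8, and 57.8 and 28.0), TMEM229B (56.1 and 29.5) and NKD1, an inhibitor of WNT signalling (57.0 and 30.6, ratio 0.536, 0.317 to 0.869). Lower H3K27me3 in +Dox is given by the choice of the promoters, and the counting interval of its ratio included 1 at NKD1 (0.302 to 1.54) and NPY5R (0.223 to 1.02). NPY1R and NPY5R are neighbours on opposite strands whose deposited starts lie 940 bp apart, so their windows share most of their reads and count as 1 observation.

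The share of bivalent promoters that became H3K4me3-only depended on the H3K27me3 they began with. It was 78.8% (423 of 537) between 20 and 30, 63.4% (204 of 322) between 30 and 40, 25.2% (93 of 369) between 40 and 60, 6.67% (25 of 375) between 60 and 100, and 0 of 304 above 100. The relative loss itself was not larger at weak promoters to the same degree. Over all bivalent promoters the median log2 ratio of H3K27me3 was −1.03, −1.13, −0.83, −0.68 and −0.22 in these bands. A promoter that begins near the limit needs a smaller fall to cross it, so the shares mix the fall with the distance to the limit.

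The share also differed with H3K4me3 in −Dox. It was 32.2% (242 of 752) at −Dox H3K4me3 of 20 to 40, 37.3% (228 of 611) at 40 to 60, 48.5% (216 of 445) at 60 to 100, and 59.6% (59 of 99) above 100. The rule itself enters here, since a promoter with weak H3K4me3 leaves the set when that mark drops to 20 or below in +Dox. The −Dox median of H3K27me3 was also higher in the first of these groups than in the last, 44.1 against 34.6. Counted only over promoters above 20 for H3K4me3 in both conditions, a choice made after seeing the data, the shares were 41.8%, 38.3%, 48.5% and 59.6%. By −Dox H3K27me3 they were then 83.7%, 85.8%, 83.6% and 87.2% at 20 to 30, and 75.9%, 63.1%, 69.1% and 58.3% at 30 to 40, in the same order of H3K4me3. At 40 to 60 they were 22.4%, 27.7%, 34.2% and 43.5%, and at 60 to 100 they were 5 of 120, 3 of 137, 16 of 84 and 1 of 10. The shares rose from each H3K4me3 group to the next in the band of 40 to 60 alone, whose last group holds 23 promoters. In the band of 60 to 100 the share was 19.0% at H3K4me3 of 60 to 100, against 4.17% at 20 to 40 and 2.19% at 40 to 60. The last group of that band holds 10 promoters.

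**Figure D3:**
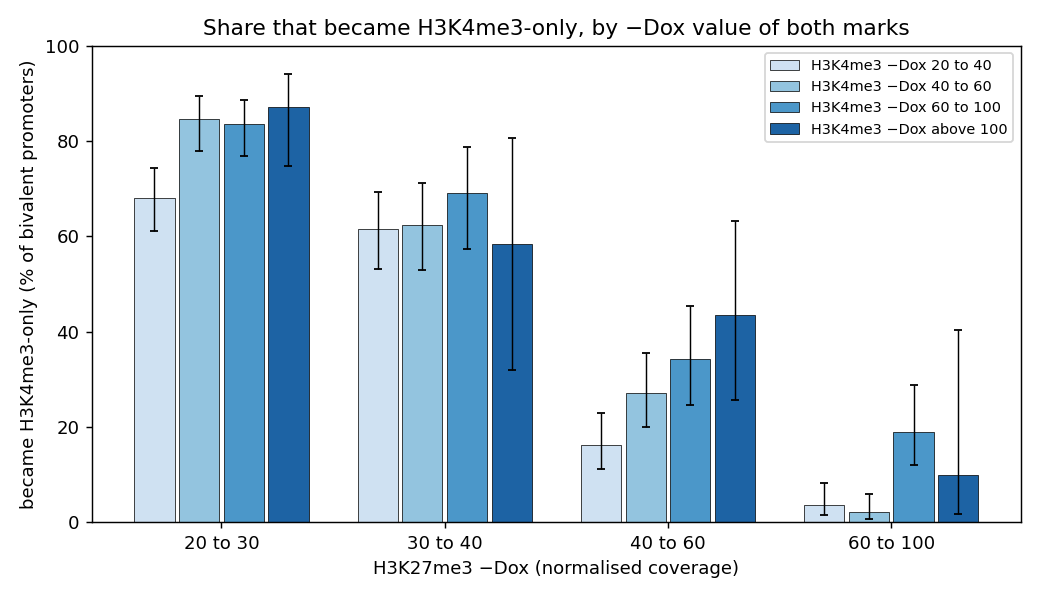
Share of bivalent promoters that became H3K4me3-only (y axis, %) by H3K27me3 in −Dox (x axis, normalised coverage) and by H3K4me3 in −Dox (shades). All bivalent promoters are counted, including those whose H3K4me3 dropped to 20 or below. Error bars are 95% Wilson intervals that treat promoters as independent; the tallest bars are at H3K27me3 of 20 to 30 (68.1% to 87.2%) and the shortest at 60 to 100 (2.11% to 19.0%).

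Among signalling genes, WNT components were represented by ligands, receptors and antagonists. The signalling lists are small, and their counts stand beside a share of 39.1% over all bivalent promoters and of 58.6% over those between 20 and 60 in −Dox. Of 13 bivalent promoters of WNT ligands and receptors, 3 became H3K4me3-only, those of FZD2 (83.3 in −Dox and 15.3 in +Dox), the receptor gene FZD8 (20.9 and 5.97) and the ligand gene WNT4 (24.7 and 10.4). Of 9 promoters of secreted WNT antagonists and modulators, 5 did (55.6%), namely SFRP1 (81.0 and 9.69), the LRP co-receptor inhibitor DKK1 (59.3 and 18.3), the frizzled-related FRZB (35.4 and 12.3), DKK3 (25.9 and 11.9) and KREMEN1. The counting interval of the H3K27me3 ratio lay below 1 at 3 of these 5, and at DKK3 it was 0.177 to 1.01. Between 20 and 60 in −Dox, 4 of 5 promoters of this list were in the set. At DKK1, H3K4me3 was 21.1 and 31.7, with a ratio whose interval included 1 (0.805 to 2.77).

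Of 11 bivalent promoters of BMP, TGF-beta and activin ligands and receptors, 3 became H3K4me3-only. BMP4, a ligand that promotes mesodermal and trophectodermal fates in human ES cells, had H3K27me3 values of 54.4 and 8.95 (ratio 0.165, 0.0619 to 0.367), and H3K4me3 values of 113.7 and 94.3. BMP3 was given above, and BMP2 had 39.9 and 19.0. None of the 6 bivalent promoters of BMP and activin antagonists, with a median of 46.97 in −Dox, was in the set, and all 6 were stable bivalent. Between 20 and 60 in −Dox, 0 of 4 antagonist promoters and 3 of 6 ligand and receptor promoters were in the set, where 58.6% of all bivalent promoters were. Of 7 FGF ligand and receptor promoters 1 was in the set, that of FGF13, an intracellular FGF homologue, at 32.7 and 1.12, which was the lowest H3K27me3 ratio of all 745 (0.0342, 0.000955 to 0.240). That ratio rests on an estimated 1 read in +Dox, at a deposited start 493306 bp from the canonical one. In the IGF system 2 of 4 were in the set, IGFBP7 and IGFBP6 (35.8 and 9.32), which both code for binding proteins. Of 11 Notch and hedgehog promoters 5 were in the set, with −Dox values no higher than 34.6: the hedgehog receptor PTCH1 (25.5 and 9.32), the hedgehog co-receptors GAS1 (29.3 and 6.34) and BOC, the Notch ligand DLL1 and the Notch-related repressor HES6 (34.6 and 16.4).

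Few promoters of lineage transcription factors became H3K4me3-only. None of the 9 bivalent HOX promoters was in the set, and 4 were stable bivalent and 5 in neither set. Of 89 promoters of other homeobox genes 6 were (6.74%), among them those of ZFHX4, the forebrain and eye factor SIX3 (50.2 and 16.8), IRX1 and ZFHX3. Of 40 forkhead, SOX, GATA and T-box promoters 7 were (17.5%), among them SOX3, a factor of neural progenitors (55.9 and 13.4), SOX9, a factor of cartilage and of several progenitors (45.3 and 19.8), and SOX30 (38.4 and 14.9). Of 28 promoters of basic helix-loop-helix lineage factors 4 were (14.3%), namely MYF6 (57.8 and 11.9), TCF15, the retinal factor ATOH7 (30.4 and 12.7) and ID4. Stable bivalent were 65 of the 89, 29 of the 40 and 20 of the 28. The share in the set over all bivalent promoters was 39.1%.

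These lists began with far more H3K27me3. The −Dox median of their bivalent promoters was 167.0 for HOX, 143.8 for other homeobox, 118.7 for forkhead, SOX, GATA and T-box, and 103.1 for basic helix-loop-helix genes, against 43.0 for all bivalent promoters. Among promoters between 20 and 60 in −Dox, where 720 of 1228 (58.6%) became H3K4me3-only, the counts were 0 of 2, 4 of 11, 7 of 10 and 4 of 5. The low shares of these families were therefore found together with a high starting H3K27me3, and few of their promoters began in the range from which the set came. Of 12 nuclear receptor promoters 4 were in the set, those of the circadian repressor NR1D1 (40.7 and 14.9), the liver X receptor gene NR1H2 (38.0 and 17.5), the estrogen receptor gene ESR2 (35.8 and 14.5) and NR4A2. The deposited start of NR1H2 lies 46765 bp from its canonical one.

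Lists of lineage markers gave few promoters. Of 10 bivalent mesoendodermal promoters only BMP4 was in the set, of 14 neuroectodermal ones only SIX3, and of 3 myogenic ones only MYF6. Their −Dox medians were 127.6, 144.7 and 91.3. The 1 bivalent promoter of a pluripotency gene was not in the set.

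The lists of neurotransmitter receptors, axon guidance and neural adhesion genes had shares near the 39.1% of all bivalent promoters. Of 34 bivalent promoters of neurotransmitter receptors 14 became H3K4me3-only (41.2%), among them those of the NMDA receptor subunits GRIN2D (74.9 and 15.7) and GRIN2A (73.0 and 19.0), and of GABRB2 (68.5 and 6.34). The deposited start of GABRA6, in the set at 63.5 and 8.95, lies 849 bp from that of GABRB2 and 138658 bp from its own canonical one, so that both are 1 observation. Of 29 promoters of axon guidance ligands and receptors 12 were in the set (41.4%), with the netrin receptor gene UNC5C (47.9 and 7.83), the ephrin gene EFNA5 (41.5 and 7.46) and the semaphorin gene SEMA4F (41.5 and 11.9) at the top. EFNA5 had one of the strongest H3K4me3 signals of the set, 161.9 and 193.9. Of 13 promoters of neural immunoglobulin and synaptic adhesion genes 5 were in the set (38.5%), led by NRCAM (59.7 and 10.8), the latrophilin gene LPHN3 (52.1 and 10.4) and LINGO1 (41.8 and 16.8). At NRCAM, H3K4me3 was 74.4 and 104.0 (ratio 1.40, counting interval 1.01 to 1.93). An interval above 1 was found at 2.15% of the set and at 1.8% of all promoters above 20 for H3K4me3 in both conditions. Between 20 and 60 in −Dox, where 58.6% of bivalent promoters were in the set, 9 of 16, 12 of 20 and 5 of 10 promoters of the 3 lists were.

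Of 48 promoters of potassium, sodium and calcium channels 12 were in the set, and of those between 20 and 60 in −Dox 12 of 32 (37.5%, against 58.6% of all bivalent promoters in that range). The strongest were the inward rectifier gene KCNJ12 (43.7 and 13.8), KCNS1 (42.2 and 19.4) and the calcium channel gene CACNA1A (39.9 and 15.3). Of 18 promoters of cadherins and protocadherins 4 were in the set (3 of 8 between 20 and 60), namely PCDH15, a protein of hair cell tip links (62.8 and 19.0), CDH7 (49.1 and 17.5), DCHS1 and FAT4. Of 43 promoters of peptide hormones, neuropeptides and their receptors 13 were (30.2%), among them the somatostatin receptor gene SSTR2 (52.5 and 14.5), the gastrin receptor gene CCKBR (51.3 and 13.8) and the vasopressin gene AVP (39.2 and 18.3).

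In the extracellular matrix, 9 of 16 promoters of matrix proteases and their inhibitors were in the set (56.2%), with ADAMTS8 (39.9 and 14.5), ADAMTS5 (34.2 and 15.3) and ADAMTS9 (31.6 and 11.9) first by −Dox value. Their median log2 ratio of H3K27me3 was −0.73, against −1.39 for the set, and the counting interval lay below 1 at 4 of the 9. The bivalent promoters of this list had a median H3K27me3 of 30.2 in −Dox, against 43.0 for all bivalent promoters. Between 20 and 60 in −Dox, 9 of 15 promoters of this list were in the set, where 58.6% of all bivalent promoters were. Of 16 collagen and laminin promoters 5 were in the set, among them COL25A1 (53.6 and 15.7), COL23A1 (29.3 and 10.1) and LAMB1 (28.1 and 15.3). Of 44 solute carrier promoters 16 were (36.4%), with SLC37A2 (47.2 and 13.0), SLC16A14 (39.6 and 13.0) and SLC22A3 (37.3 and 14.5) first.

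A further pair of lists had shares above 39.1%. Of 25 bivalent promoters of zinc finger genes with a ZNF symbol 16 became H3K4me3-only (64.0%), with ZNF518B (55.1 and 11.2), ZNF385B (44.5 and 19.4) and ZNF385D (42.2 and 14.9) first. Their bivalent median of H3K27me3 in −Dox was 28.9. Between 20 and 60 the count was 16 of 21 (76.2%), where 58.6% of all bivalent promoters were in the set. The counting interval of the H3K27me3 ratio lay below 1 at 10 of the 16. Of 9 bivalent promoters of Polycomb components and H3K4 or H3K27 methylation enzymes 5 were in the set. These are PCGF5, a subunit of a variant Polycomb repressive complex 1 (41.1 and 17.9), PHC2, a polyhomeotic subunit of Polycomb repressive complex 1 (33.8 and 10.8), EZH1, an H3K27 methyltransferase of Polycomb repressive complex 2 (32.7 and 7.83), and the Polycomb-associated genes ASXL1 and ASXL3. The counting interval lay below 1 at 4 of these 5, and at ASXL3 it was 0.323 to 1.35. Between 20 and 60 in −Dox, 5 of 5 promoters of this list were in the set.

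**Figure D4:**
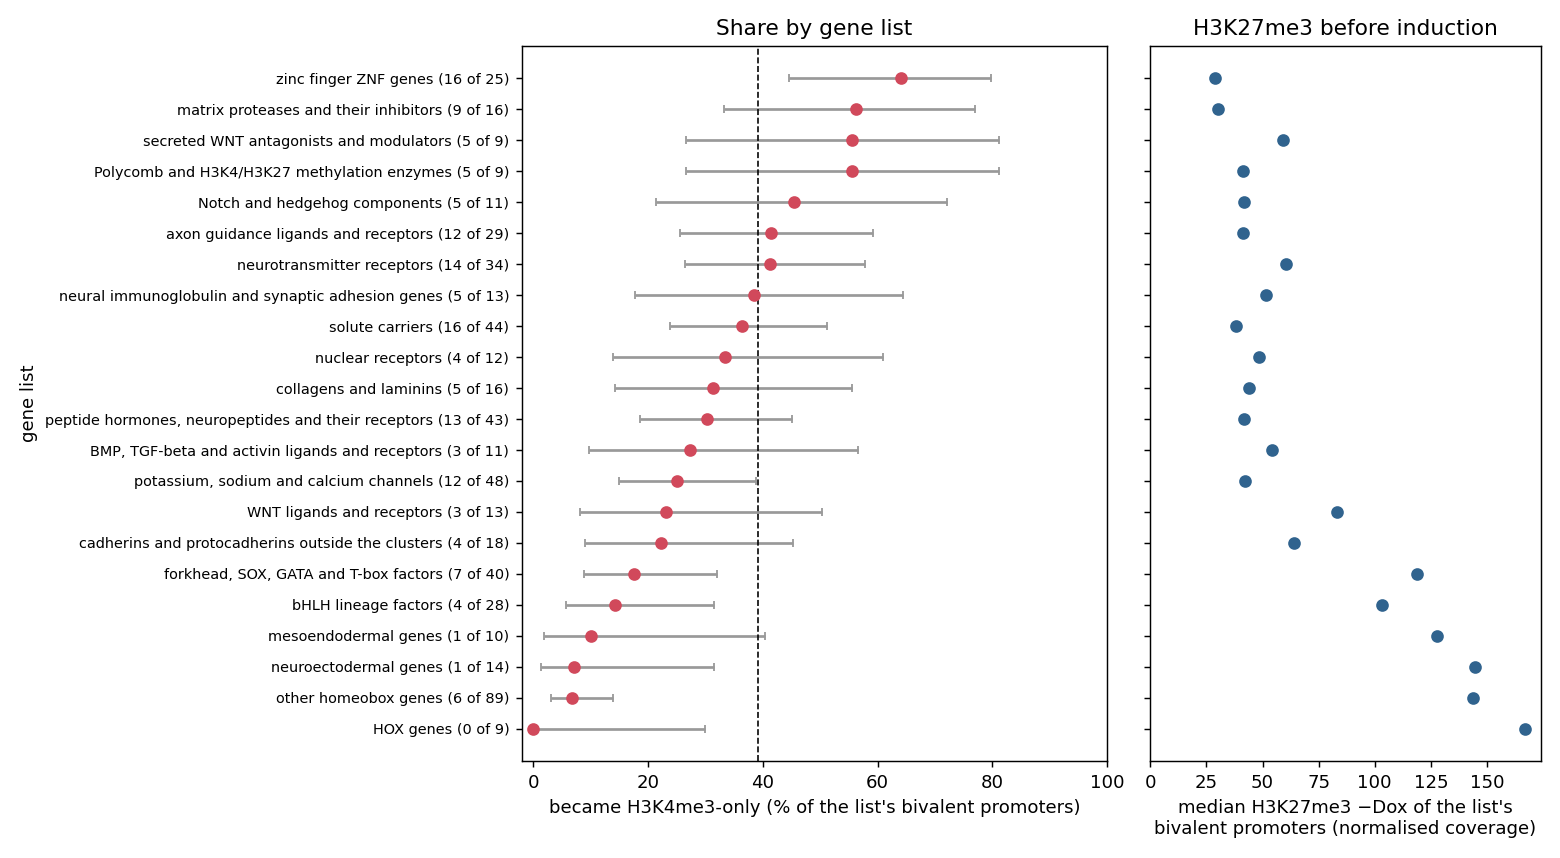
Left, share of each list's bivalent promoters that became H3K4me3-only (x axis, %; counts beside the names; bars are 95% Wilson intervals that treat promoters as independent), with the 39.1% of all bivalent promoters as a dashed line; lists with at least 9 bivalent promoters are drawn. Right, median H3K27me3 in −Dox of the same promoters in normalised coverage; the homeobox, HOX and neuroectodermal lists combine the lowest shares with medians above 140, and the zinc finger list has the highest share and a median of 28.9.

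The promoters of the set were CpG-rich like other bivalent promoters. Of the 694 with a position on GRCh37 (93.2%), 87.8% had an island-like sequence in the 500 bp on each side of the start, that is GC above 50% and an observed/expected CpG ratio above 0.6, against 87.9% of stable bivalent and 60.7% of all promoters. The CpG ratio had a median of 0.805, against 0.796 and 0.705. H1F0 and NRCAM, printed above, had ratios of 0.782 and 0.822, and GRIN2D and MYF6 0.381 and 0.367.

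They differed in the GC content of the whole promoter window, 3 kb to either side. Its median was 50.6% (interquartile range 47.2 to 54.7) in the set, 53.4% (49.2 to 57.9) in stable bivalent promoters and 48.5% over all promoters. By −Dox H3K27me3 it was lower in the set in the 4 bands up to 100, with medians of 50.5% and 54.9% at 20 to 30, 50.6% and 53.2% at 30 to 40, 50.8% and 53.1% at 40 to 60, and 50.2% and 51.5% at 60 to 100. GC content can affect the recovery of reads in ChIP-seq, and its part in the result was not tested. TATAAA, searched on the gene's strand from 45 to 15 bases before the start, was found in 3.89% of the set, 3.28% of stable bivalent and 3.18% of all promoters. CCAAT on either strand in the 150 bases before the start was found in 22.6%, 22.99% and 24.9%. GGGCGG on either strand from 250 bases before to 50 after the start was found in 74.8%, 72.9% and 56.4%, and its letters contain a CG. A match to these letters is a description and not a site.

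**Figure D5:**
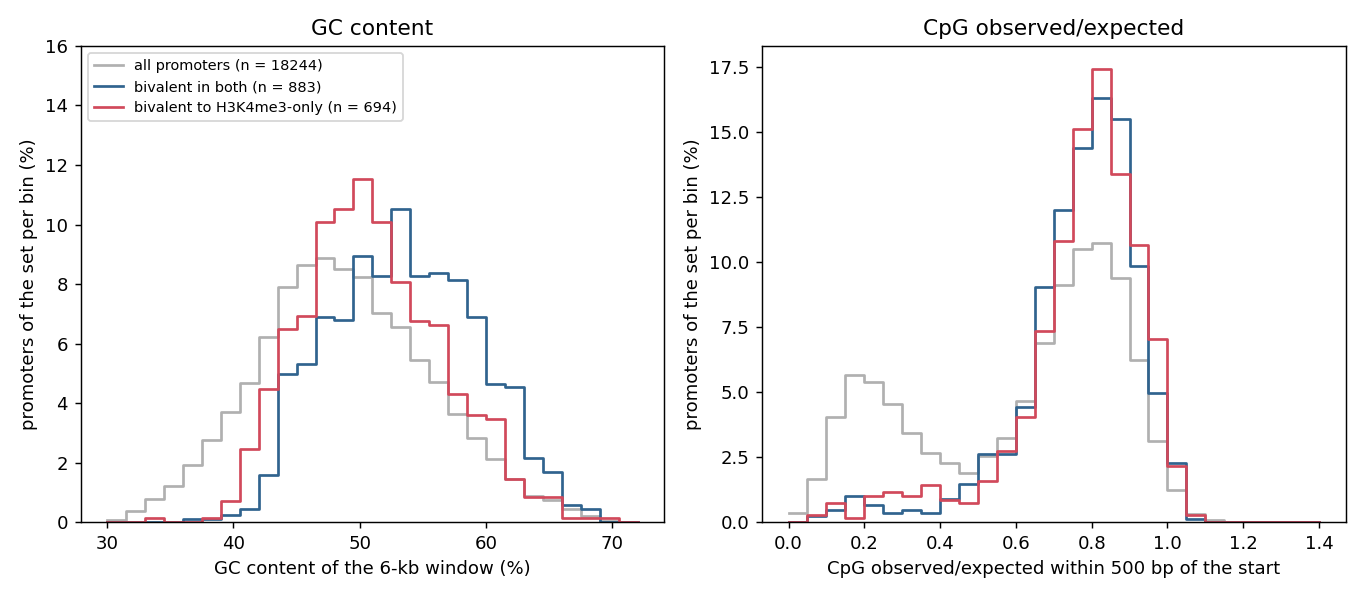
Distribution of GC content over the whole promoter window (left, x axis in %) and of the observed/expected CpG ratio within 500 bp of the start (right), as percent of each set per bin (y axis), for the set (red), stable bivalent promoters (blue) and all promoters (grey) with a position. The red curve lies to the left of the blue one for GC content (medians 50.6% and 53.4%), and both have 1 main CpG peak near 0.8 where all promoters have a second one near 0.2.

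The set was spread over 23 chromosomes, and 684 of the 694 genes were protein coding and 10 long noncoding. The deposited start lay over 1 kb from that of the canonical transcript at 76 of them. One case is PSMA1, whose deposited start is 187 bp from that of PDE3B and 123231 bp from its canonical one, so that the H3K27me3 fall at PSMA1 and PDE3B is 1 observation. Other named cases include ZNF385D (621421 bp), FGF13 (493306 bp), LINGO1 (187988 bp), NR1H2 (46765 bp), TMEM229B (26764 bp), SOX30 (19042 bp), NPY1R (12236 bp) and PTCH1 (7705 bp). Their values describe the deposited start and not the canonical promoter of the gene. The deposited transcripts of EZH1, PHC2, ZFHX4, PPP1R9B and SLC22A3, among others, had no position, so this distance is not known for them. In all, 63 promoters of the set had a window that overlaps that of another one. BBS5 and a noncoding neighbour had the same 4 values. Bivalent neighbours within 200 kb but with a separate window were counted once for each promoter they lay beside. A pair within the set was thus counted from both sides. Beside promoters of the set, 106 of 251 such neighbours (42.2%) were in the set too, against 115 of 369 (31.2%) beside stable bivalent promoters. The share over all bivalent promoters was 39.1%, and starting H3K27me3 was not matched in this count. An example chosen after its values were seen is the group of TRAIL receptor genes, where TNFRSF10A, TNFRSF10B and TNFRSF10D were all in the set. Their H3K27me3 values in +Dox were 13.8, 11.9 and 12.3, which the rule holds at or below 20.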

How the data were processed

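Chromatin immunoprecipitation for H3K27me3 and H3K4me3 was sequenced from −Dox and +Dox JMJD3c-hESCs, 1 library each. The authors mapped single-end MiSeq reads to hg19 with Bowtie2, discarded mitochondrial reads, and deposited signal, that is ngs.plot coverage scaled to the library's reads and summed over 3 kb on each side of the start of 1 transcript per Ensembl gene. The submitters' processing notes also name CASAVA 1.4. Further versions are not given in the sources used here. The study's methods name a normalisation of profiles to the density past the transcript ends, and do not say whether it was applied to the deposited values. No input library was used here.

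The 4 tables were joined on gene and transcript identifier, giving the same 20242 promoters. Bivalent and H3K4me3-only followed the study's limit of 20. Ratios are plain +Dox/−Dox values. All values were whole multiples of a step (0.380 and 0.373 in H3K27me3 −Dox and +Dox, 0.285 and 0.373 in H3K4me3), which, taken as 1 read at 1 data point, gives about 2629350, 2682090, 3509240 and 2682090 reads. A read was estimated to cover 3.40 data points. From the reads so estimated, counting intervals of ratios were made by the exact Clopper-Pearson method at 95%, and shares in the plots have Wilson intervals. These cover counting error only (without molecular identifiers, reads may be copies of 1 molecule), and an interval compares 2 libraries, not 2 conditions. No test was run, since each group is 1 library. The method was tested on simulated data, at promoters with H3K27me3 above 60 in −Dox. Only 25 promoters of the set began at 60 or more, so calls and intervals near the limit of 20 were not tested in this way.

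The members and the 27 gene lists were chosen with earlier results of these data known. Named genes were the 10 lowest H3K27me3 ratios from at least 40 in −Dox, the 10 largest falls, the 5 highest and 5 lowest H3K4me3 ratios, up to 3 per list by −Dox H3K27me3, and the 3 beside each limit; other names were added after their values were seen, and some items are not reported here. Positions are GENCODE 44 mapped to GRCh37, matched by transcript identifier (18244 promoters, 90.1%). In 28 rows, 2 of them in the set, the symbol had become a date, and these were kept by identifier. Alternatives were other limits, 2 scalings, a margin, a pseudocount and counting identical promoters once. Python 3.11.15, pandas 2.3.3, numpy 2.4.6 and scipy 1.17.1 were used.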

Additional observations from a re-analysis of the deposited data

How the results depend on the processing

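No paired analysis was possible because every group is a single library, and none could be left out. Of 67 recomputed values, 32 stayed within 1.5 times (counts) or within the main value's 95% interval, 33 moved and 2 changed sign. With a limit of 10, 15, 30 or 40 in place of 20, the set held 1725, 1045, 434 or 230 promoters, and the reverse change was met by 1149, 153, 20 or 5 in place of 36, but the share of bivalent promoters in the set was 41.6%, 40.3%, 39.2% or 36.98%. The share of promoters with a counting interval below 1 went from 26.96% at a limit of 10 to 51.3%, 77.0% and 84.3% at 15, 30 and 40, as reads per promoter grow with the limit. At a limit of 10 the median log2 ratio of H3K27me3 was −1.25, with 64.0% of promoters at less than 0.5 of their −Dox value, and at 40 the median was −1.32.

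Scaling each mark to the same total multiplied H3K27me3 +Dox by 1.18 and H3K4me3 +Dox by 1.03. The set then held 33.8% of bivalent promoters, 65.4% kept less than 0.5 of their H3K27me3 and 50.4% had a counting interval below 1, the median log2 ratios were −1.22 for H3K27me3 and 0.0112 for H3K4me3, H3K4me3 was higher at 51.9%, and the reverse change was met by 101 promoters. Scaling to a median ratio of 1 over promoters at or below 20 gave 61.3% with a counting interval below 1, a median H3K4me3 log2 ratio of −0.115 and 36.6% with more H3K4me3. Requiring at least 25 in −Dox and at most 15 in +Dox left 344 promoters (18.04% of bivalent ones), with H3K27me3 at less than 0.5 of its −Dox value at 93.3%, 85.5% with a counting interval below 1 and 50.9% with more H3K4me3, and median log2 ratios of −1.72 and 0.00709. A pseudocount of 5 gave 55.6% with an H3K27me3 ratio below 0.5 and a median log2 ratio of −1.08. Counting only promoters above 20 for H3K4me3 in both conditions, chosen after seeing the data, put 43.4% of them in the set. The direction of H3K4me3 in the set therefore depends on the scaling and the margin, and that of H3K27me3 is fixed by the choice of promoters. Depth limits single promoters, since 20 stands for about 15.5 H3K27me3 reads in −Dox.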
